A study of Mus musculus with 21 samples.

Results

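The data described here are the expression values of 10 genes that are read as marks of an epithelial or a mesenchymal cell state, namely Krt7, Krt8, Krt18, Krt19, Epcam, Vim, Snai1, Snai2, Zeb1 and Zeb2, in mouse notochord and mesoderm cells. The genes were chosen by symbol, and all 10 were found among the 23983 genes of the deposited expression table. The first 5 are counted below as epithelial and the other 5 as mesenchymal members. RNA-seq was made of sorted cells, with 1 library for each of 9 conditions, so differences between libraries have no replicate check and no test was made. In embryos grown from F1G4 embryonic stem cells (C57BL/6N x SV129) by tetraploid complementation, as the labels state it, the stem cells carried T::H2B-Venus, Noto::H2B-mCherry and Foxa2::H2B-mTurquoise reporters on bacterial artificial chromosomes. The study's text instead names aggregation with diploid morulae, whose host cells would lack the reporters. Each embryonic library pooled cells of several embryos. Notochord progenitors (NotoP; Noto, T and Foxa2 reporters on) and mesoderm progenitors (MP; T reporter on, Noto and Foxa2 reporters off) were sorted from caudal ends at embryonic day 8.5 (E8.5, Theiler stage 12) and 9.5 (E9.5, Theiler stage 16), and trunk notochord (all 3 reporters on) from the trunks of the same stages. In culture, embryonic stem cells with a doxycycline-inducible Foxa2-IRES-EGFP transgene at Rosa26, driven from a T::H2B-mCherry-T2A-irTA construct, and a Noto::H2B-mTurquoise reporter were grown in bFGF and CHIR99021. Neuromesodermal progenitors (NMPdiff; T on, Noto off) were sorted on day 3 and MPdiff cells (T on, Noto off) on day 4, both without doxycycline, and NotoPdiff cells (Noto and T on) on day 4 after 1 ng/ml doxycycline. The induced transgene adds to the Foxa2 value of NotoPdiff cells, and the culture line is a single engineered line.

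The notochord is the midline rod of the embryo, formed from T-positive progenitors that also express Foxa2 and Noto, and its cells are held in a compact sheath. Keratins are the intermediate filament proteins of simple epithelia. They assemble only as pairs of a type II keratin (Krt7, Krt8) with a type I keratin (Krt18, Krt19). Vim encodes the intermediate filament protein of mesenchymal cells, and Epcam a cell adhesion protein of epithelia. In the epithelial-mesenchymal transition, which mesoderm cells pass through as they leave the primitive streak, the zinc finger factors Snai1, Snai2, Zeb1 and Zeb2 repress epithelial genes through E-box sequences.

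The sorted cells were first checked against marker genes. All 8 notochord markers (Noto, T, Foxa2, Shh, Chrd, Nog, Foxa1, Sox9) were above 1 FPKM (fragments scaled by transcript length and by the number of mapped fragments) in NotoP of both stages, in E8.5 trunk notochord and in NotoPdiff cells. In E9.5 trunk notochord, 7 of the 8 were, with Chrd listed at 0. Noto was at 0 in both MP libraries and in MPdiff cells, while the paraxial mesoderm list (Tbx6, Msgn1, Dll1, Pcdh8, Osr1, Foxc2, Meox1, Mesp2) summed to 245 FPKM in E8.5 MP and 347 FPKM in E9.5 MP. That list also summed to 137 and 123 FPKM in NotoP of E8.5 and E9.5, led by Dll1 (51.7 FPKM) and Msgn1 (46.6 FPKM), against 45.4 and 22.0 FPKM in trunk notochord, where Tbx6 and Msgn1 were at 0. Caudal NotoP libraries thus held transcripts of mesoderm markers. In bulk samples, a smaller number of cells of a type and less RNA per cell cannot be told apart.

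The E8.5 MP library stood apart from the others. According to the study's methods, it was made from the fewest cells, and both trunk notochord libraries also from far fewer than the NotoP libraries and E9.5 MP. It had 13945 genes listed at 0, the most of the 9 libraries. When 6593 genes were selected that reached 5 FPKM in E9.5 MP and both NotoP libraries, 155 of them were listed at 0 in it. The 7 gut endoderm markers analysed (Sox17, Hhex, Afp, Apoa1, Apom, Ttr, Cpm) summed to 89.0 FPKM in it, with Afp the highest at 62.2 FPKM and only Hhex at 0, against 2.41 FPKM in E9.5 MP. They also summed to 88.1 FPKM in E8.5 trunk notochord, led by Ttr at 36.0 FPKM, and to 137 FPKM in E9.5 trunk notochord, led by Afp at 95.7 FPKM, with Sox17 and Apom at 0 in both. In NotoP they summed to 9.34 FPKM at E8.5 and 1.73 FPKM at E9.5, with Afp, Apoa1, Apom and Ttr at 0. Since gut endoderm is itself a keratin and Epcam expressing epithelium, these values stand beside the keratin and Epcam values below, and their part in them was not tested. The gates described above took MP cells with the Foxa2 reporter off and trunk notochord cells with the Noto reporter on. The study describes Foxa2 as expressed in endoderm too, and Noto as specific to the notochord. Of 10 housekeeping genes, 0 passed 3-fold between NotoP and MP at either stage or between NotoPdiff and MPdiff, and Hprt was lower in trunk notochord than in MP at E9.5. All 10 had a ratio below 0 in that last comparison, with a median log2 ratio of -0.74. For the members, counts over E8.5 MP and ratios that cross 3-fold are also given with the E9.5 MP library in its place, as are the main counts of the other lists.

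Krt8 (chr15:101996698-102004482, minus strand; coordinates are of mm10) and Krt18 (chr15:102028180-102032027, plus strand), the first keratin pair to appear in the embryo, were the most abundant keratins in trunk notochord, in E8.5 NotoP and in NotoPdiff cells. Krt8 was at 250.3 FPKM in NotoP, 641 FPKM in trunk notochord and 30.2 FPKM in MP at E8.5. At E9.5, the same cells had 109 FPKM, 423 FPKM and 1.27 FPKM of Krt8. Both MP values lay below every notochord value, although they differed from each other by more than an order of magnitude. In E8.5 trunk notochord Krt8 ranked as number 67 among all 23983 genes by FPKM, and in E9.5 MP as number 10353. In culture, Krt8 was at 66.1 FPKM in NMPdiff, 181 FPKM in NotoPdiff and 11.8 FPKM in MPdiff cells.

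Krt18 followed the same order. Its level at E8.5 was 304 FPKM in NotoP, 627 FPKM in trunk notochord and 16.7 FPKM in MP, and at E9.5 it was 86.5 FPKM, 217 FPKM and 1.63 FPKM. NMPdiff cells had 36.7 FPKM, NotoPdiff cells 212 FPKM and MPdiff cells 7.33 FPKM of Krt18. As log2 ratios after adding 1 FPKM to each value, the scale of all ratios below, the difference of NotoP over MP was 3.01 for Krt8 and 4.11 for Krt18 at E8.5 and 5.6 and 5.05 at E9.5. The difference of NotoPdiff over MPdiff was 3.83 for Krt8 and 4.67 for Krt18. The ratio of Krt8 to Krt18 FPKM within a library, which no scaling between libraries can move, lay between 0.776 in E9.5 MP and 1.95 in E9.5 trunk notochord.

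Krt19 (chr11:100140810-100148665, minus strand), the type I keratin without a tail domain, was also high in the notochord, and in E9.5 NotoP it was the most abundant of the 4 keratins. It was at 96.1 FPKM in NotoP, 285 FPKM in trunk notochord and 5.67 FPKM in MP at E8.5, and at 160.3 FPKM, 125 FPKM and 1.66 FPKM at E9.5. The groups of notochord and MP values did not overlap for Krt19 either. Unlike Krt8 and Krt18, its value in NotoP was higher at E9.5 than at E8.5, so that the ratio of Krt19 to Krt18 in NotoP was 0.316 at E8.5 and 1.85 at E9.5. In culture the Krt19 level was 20.1 FPKM in NMPdiff, 30.7 FPKM in NotoPdiff and 1.68 FPKM in MPdiff cells.

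Krt7 (chr15:101411043-101430313, plus strand), a type II keratin of ducts and simple epithelia, was the least abundant of the 4 in every library but E8.5 MP. At E8.5, its level was 1.78 FPKM in NotoP, 5.55 FPKM in trunk notochord and 18 FPKM in MP, and at E9.5 it was 18.7 FPKM and 15.0 FPKM in NotoP and trunk notochord and 0 in MP. In culture Krt7 was listed at 6.51 FPKM in NotoPdiff cells and at 0 in NMPdiff and MPdiff cells. The E8.5 MP value was the only one of MP and MPdiff above 0, and with E9.5 MP in its place the log2 ratio of NotoP over MP at E8.5 turned from -2.77 to 1.48, and that of trunk notochord from -1.54 to 2.71.

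Of the 52 keratin genes in the table, 28 were at 0 in all 9 libraries and 5 reached 5 FPKM in any. Beside the 4 members, the fifth was Krt79, at 6.19 FPKM in E8.5 MP and at 0 in the other 8 libraries. Krt5 and Krt14, the keratins of stratified epithelium, were at 0 in all 6 embryonic libraries. The whole surface ectoderm list (Trp63, Tfap2a, Tfap2c, Krt5, Krt14, Wnt6, Grhl3, Dlx5) was at 0 in E8.5 trunk notochord, the library with the highest Krt8, and summed to 7.60 FPKM in trunk notochord of E9.5. In NotoP it summed to 21.2 FPKM at E8.5 and 10.1 FPKM at E9.5, mostly Wnt6 (14.6 and 8.72 FPKM). In E8.5 and E9.5 MP, it summed to 2.80 and 2.15 FPKM, with Grhl3 the highest.

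Most keratin genes beside those high in the notochord were at or near 0. Within 100 kb on either side of Krt8 and Krt18, Krt4 and Krt78 were at 0 in all 6 embryonic libraries and Krt79 in all but E8.5 MP. Eif4b, the next gene beyond Krt18 and a translation factor, differed by a log2 ratio of 0.87 at E8.5 and 0.23 at E9.5 between NotoP and MP. Around Krt19, in the cluster of type I keratins, Krt13, Krt9 and Krt16 were at 0 in all 9 libraries, and Krt15 was at most 0.581 FPKM.

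**Figure D1:**
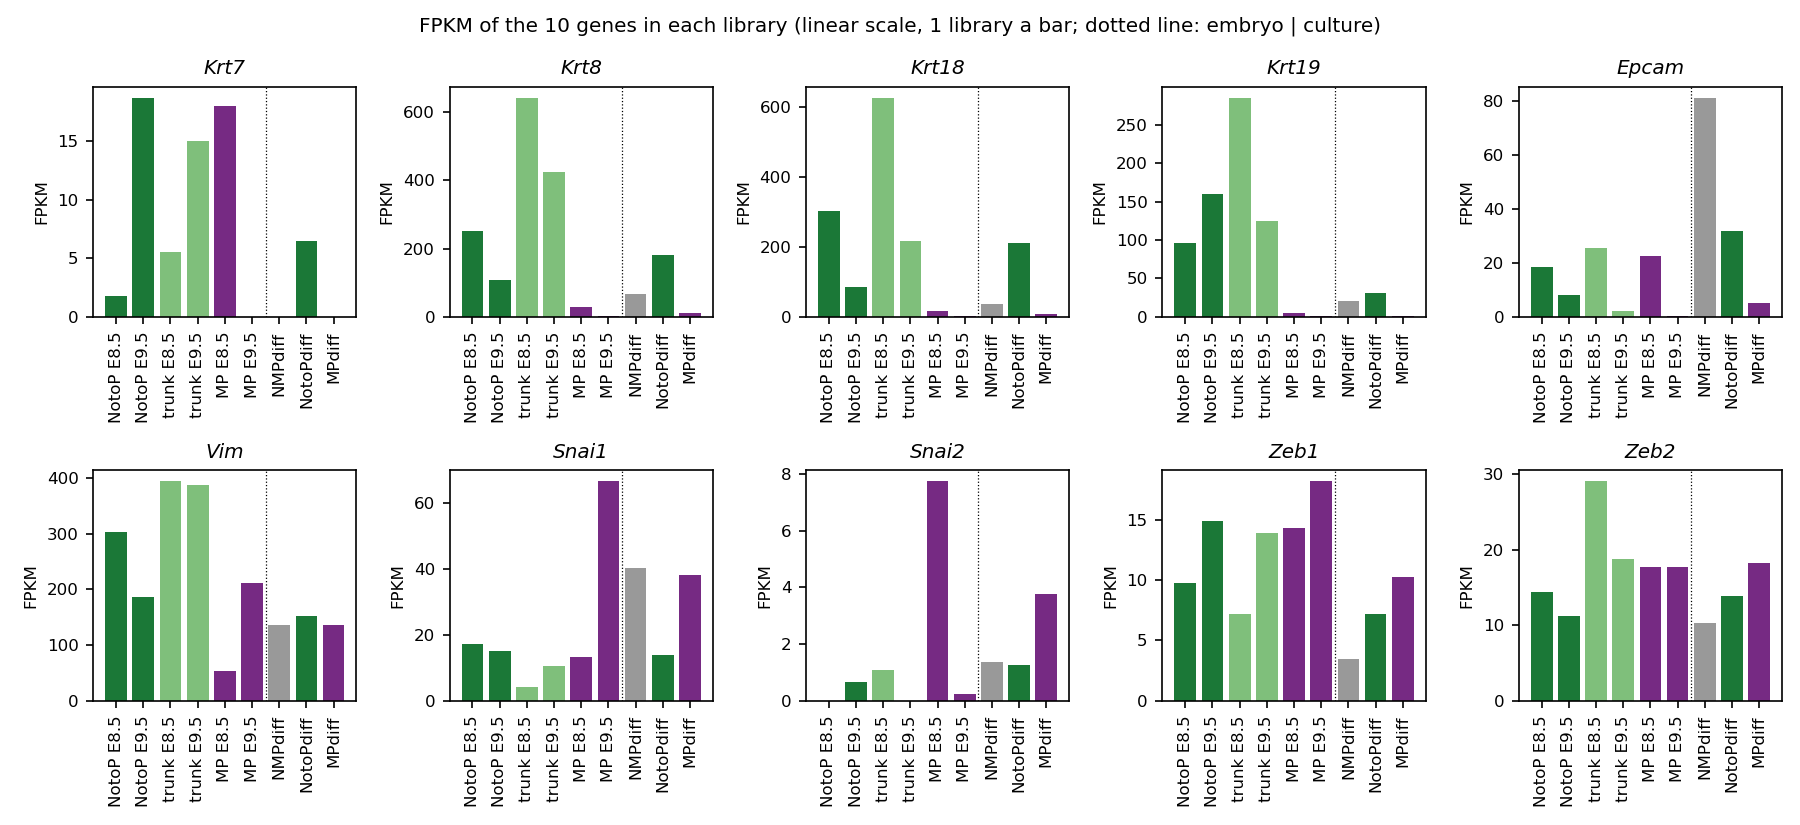
FPKM of each of the 10 genes (vertical axis, linear, from 0) in each of the 9 libraries (horizontal axis; dark green NotoP and NotoPdiff, light green trunk notochord, purple MP and MPdiff, grey NMPdiff), 1 library a bar and therefore no error bars. Krt8, Krt18 and Krt19 are higher in every notochord bar than in either MP bar, while the Vim and Zeb2 bars overlap between cell types.

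Counted by a 3-fold rule on the scale above, 4 of the 10 members were higher in NotoP than in MP at E8.5 (Krt8, Krt18, Krt19, Vim), beside 8.83% of all genes, and 2 were lower (Krt7, Snai2), beside 4.02%. At E9.5, 5 members were higher in NotoP (Krt7, Krt8, Krt18, Krt19, Epcam), beside 2.63% of all genes, and Snai1 alone was lower, beside 1.11%. Krt8, Krt18 and Krt19 passed at both stages, as did 1.31% of all genes in that direction, and no member was lower at both, against 0.238% of all genes. Among genes with at least 1 FPKM in either library, the shares of higher genes were 18% at E8.5 and 5.33% at E9.5. With E9.5 MP in place of E8.5 MP, 4 members were higher in E8.5 NotoP (Krt8, Krt18, Krt19, Epcam), beside 3.96% of all genes, and Snai1 was lower, beside 2.42%. Vim, Krt7 and Snai2 then no longer passed.

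Trunk notochord gave the same keratins. At E8.5, 4 members were higher than in MP (Krt8, Krt18, Krt19, Vim), beside 10.4% of all genes, and Snai2 was lower, beside 4.58%. With E9.5 MP in its place, 5 members were higher in E8.5 trunk notochord (all 4 keratins and Epcam), beside 5.66% of all genes, and Snai1 was lower, beside 3.13%, while Vim and Snai2 no longer passed. At E9.5, 4 members were higher (Krt7, Krt8, Krt18, Krt19), beside 5.6% of all genes, and Snai1 was lower, beside 4.49%. In culture, 5 members were higher in NotoPdiff than in MPdiff cells (all 4 keratins and Epcam), beside 1.55% of all genes, and 0 were lower, beside 0.442%. NotoP and trunk notochord were set against the same MP library at each stage. The log2 ratios of Krt8, Krt18 and Krt19 stayed at least 3-fold in all 66 values computed under other pseudocounts, scalings and the other MP library, between 2.42 and 8.27.

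**Figure D2:**
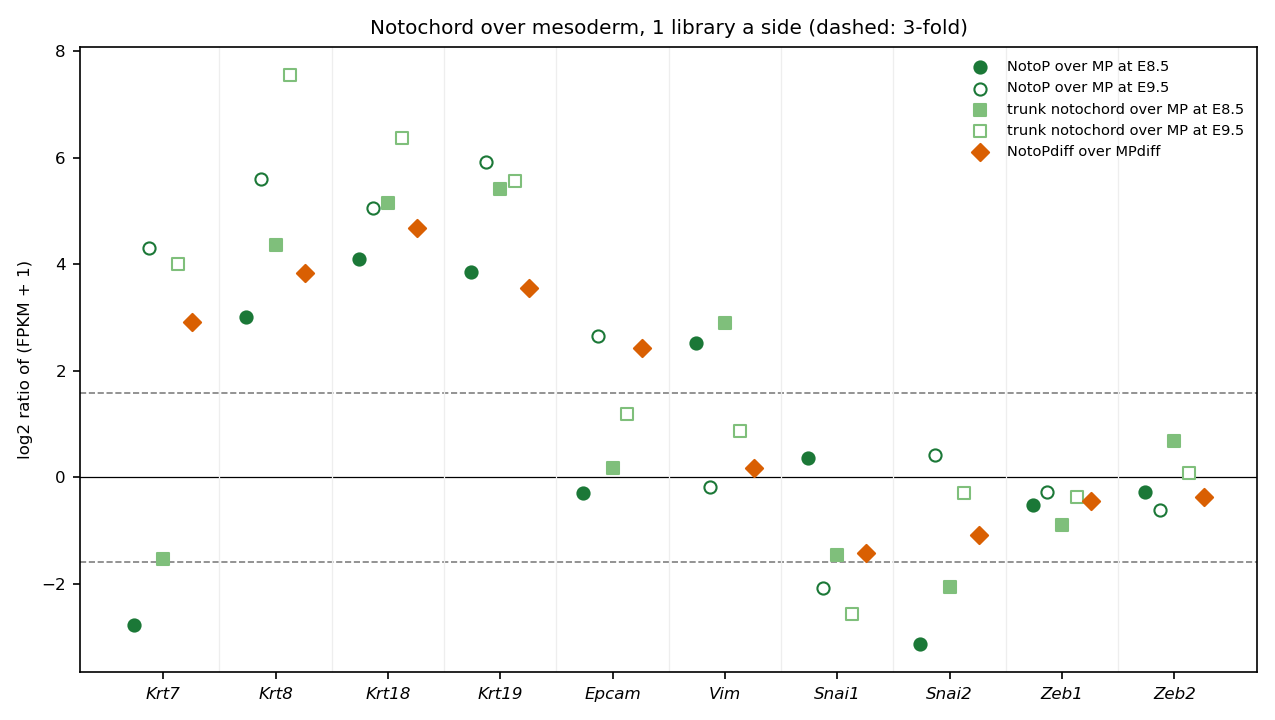
Log2 ratio of FPKM plus 1 (vertical axis) of each member in 5 comparisons of notochord with mesoderm (circles NotoP, squares trunk notochord, diamonds NotoPdiff; filled E8.5 or culture, open E9.5), each of 1 library against 1. Krt8, Krt18 and Krt19 lie above the upper dashed 3-fold line in all 5, Zeb1 and Zeb2 lie between the lines in all 5, and Krt7 changes side between stages.

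Epcam (chr17:87635979-87651129, plus strand) did not separate notochord from mesoderm at E8.5. Its level was then 18.3 FPKM in NotoP, 25.6 FPKM in trunk notochord and 22.7 FPKM in MP. At E9.5 all 3 values were lower, at 8.12 FPKM, 2.31 FPKM and 0.444 FPKM. The highest Epcam value was in NMPdiff cells, at 81.0 FPKM, with 31.7 FPKM in NotoPdiff and 5.06 FPKM in MPdiff cells. Against E9.5 MP, the log2 ratio of E8.5 NotoP was 3.74 in place of -0.29, and that of trunk notochord 4.20 in place of 0.17.

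Vim (chr2:13573927-13582826, plus strand) was high together with the keratins. It was at 304 FPKM in E8.5 NotoP, 186 FPKM in E9.5 NotoP, and in trunk notochord at 395 FPKM (E8.5) and 389 FPKM (E9.5). MP had 52.4 FPKM at E8.5 and 212 FPKM at E9.5, and the cultures had 136 FPKM (NMPdiff), 153 FPKM (NotoPdiff) and 135 FPKM (MPdiff). The notochord and mesoderm values overlapped, since E9.5 MP lay above E9.5 NotoP, and the 3 cultures were nearly level. The 3-fold difference of Vim at E8.5 (log2 ratio 2.51 for NotoP) rested on the E8.5 MP library and was 0.51 against E9.5 MP. For trunk notochord, it went from 2.89 to 0.89.

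Within each library, the 4 keratins were therefore set against Vim. They made up 68.2% of the summed keratin and Vim FPKM in E8.5 NotoP, 66.8% in E9.5 NotoP, and in trunk notochord 79.8% (E8.5) and 66.7% (E9.5). In MP the keratin share was 57.4% at E8.5 and 2.1% at E9.5. In culture it was 47.4% in NMPdiff, 73.8% in NotoPdiff and 13.3% in MPdiff cells. Notochord libraries lay above every mesoderm library in this share, but E8.5 MP lay closer to them than to E9.5 MP. The E8.5 MP share combined the lowest Vim value of the 9 libraries with a keratin sum of 70.5 FPKM, against 652 FPKM in E8.5 NotoP. Type II keratins summed to less than type I keratins in both NotoP libraries, with a ratio of 0.630 at E8.5 and 0.518 at E9.5, in E8.5 trunk notochord, with 0.709, and in NotoPdiff cells, with 0.772. In E9.5 trunk notochord, the ratio was 1.28.

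**Figure D3:**
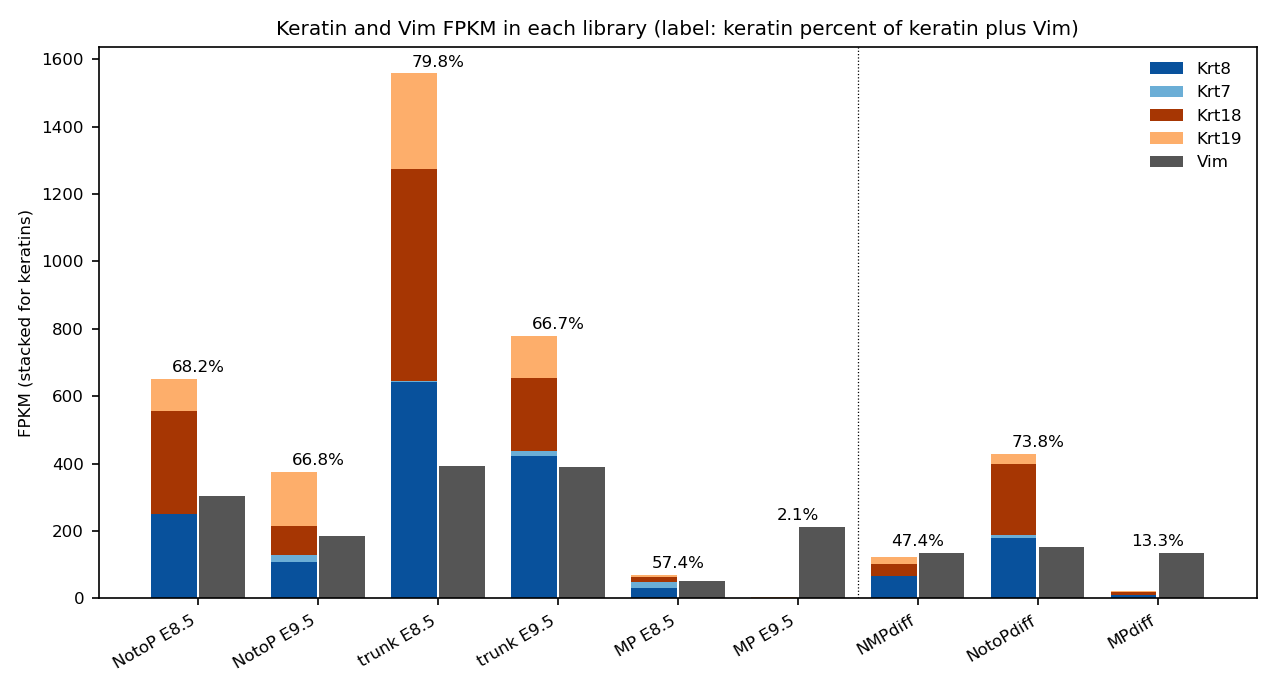
Summed FPKM of Krt8, Krt7, Krt18 and Krt19 (stacked bars) beside Vim FPKM (dark grey bars) in each of the 9 libraries, on a linear axis from 0, with the keratin percent of their sum above each pair. Keratin exceeds Vim in all notochord libraries, from 66.7% to 79.8%, and the Vim bar is lowest in E8.5 MP and overlaps between cell types in the other libraries.

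Snai1 (chr2:167538195-167542814, plus strand), the transition factor of the primitive streak, was highest in E9.5 MP, the library with the lowest keratins. It was at 17.2 FPKM in E8.5 and 15.0 FPKM in E9.5 NotoP, at 4.16 FPKM and 10.5 FPKM in trunk notochord, and at 13.1 FPKM and 66.6 FPKM in MP of the same stages. In culture it was at 40.2 FPKM in NMPdiff, 13.7 FPKM in NotoPdiff and 38.2 FPKM in MPdiff cells. E8.5 MP lay within the notochord values, and E9.5 MP, NMPdiff and MPdiff cells lay above all of them. For NotoP over MP, the log2 ratio of Snai1 was 0.37 (E8.5) and -2.08 (E9.5), and for NotoPdiff over MPdiff it was -1.41, short of 3-fold. Against E9.5 MP, the ratio of E8.5 NotoP was -1.89 and that of E8.5 trunk notochord went from -1.45 to -3.71, both past 3-fold.

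Snai2 (chr16:14705852-14709385, plus strand), its relative in mesoderm and neural crest, was low throughout. It was listed at 7.74 FPKM in E8.5 MP and 3.76 FPKM in MPdiff cells and at no more than 1.37 FPKM in the other 7 libraries, with 0 in E8.5 NotoP and E9.5 trunk notochord. Its 3-fold difference at E8.5 rested on the E8.5 MP library, since E9.5 MP had 0.227 FPKM. Against that library, the log2 ratio of E8.5 trunk notochord turned from -2.06 to 0.77, and that of E8.5 NotoP went from -3.13 to -0.30.

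Zeb1 and Zeb2, factors that act after Snai1 in many transitions, were present in every library. Zeb1 lay between 7.20 and 14.9 FPKM in the 4 embryonic notochord libraries, at 14.3 and 18.2 FPKM in E8.5 and E9.5 MP, and at 3.46 FPKM in NMPdiff, 7.19 FPKM in NotoPdiff and 10.2 FPKM in MPdiff cells. Zeb2 lay between 11.2 and 29.1 FPKM in the embryonic notochord libraries, at 17.7 and 17.6 FPKM in MP, and at 10.3, 13.8 and 18.2 FPKM in NMPdiff, NotoPdiff and MPdiff cells. Neither passed 3-fold in any of the 12 comparisons made. Zeb1 came closest in MPdiff over NMPdiff, with a log2 ratio of 1.33. Its ratio was below 0 in each comparison of notochord with mesoderm, from -0.27 to -0.90, while those of Zeb2 had both signs.

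In culture, Krt8, Krt18 and Krt19 were highest in NotoPdiff, intermediate in NMPdiff and lowest in MPdiff cells. The gut endoderm markers summed to 15.9 FPKM in NotoPdiff, 3.91 FPKM in NMPdiff and 3.31 FPKM in MPdiff cells. Sox17 led them in NotoPdiff, at 7.46 FPKM, against 0.599 FPKM in NMPdiff and 0.545 FPKM in MPdiff cells. Their part in the keratin values was not tested. In NotoPdiff over NMPdiff, Krt7 and Krt18 were at least 3-fold higher and no member lower, beside 2.11% of all genes in either direction. Krt8 had a log2 ratio of 1.44 and Krt19 of 0.59 in that comparison. In MPdiff over NMPdiff, 4 members were lower (Krt8, Krt18, Krt19, Epcam), beside 2.38% of all genes in either direction. Their log2 ratios ran from -2.18 for Krt18 to -3.76 for Epcam. Both comparisons share the NMPdiff library, which was sorted on day 3, against day 4 for the other cells. NotoPdiff cells alone had doxycycline. The study states that notochord does not derive from neuromesodermal progenitors, so NotoPdiff over NMPdiff is not a lineage step.

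The members were also compared by position along the notochord and by stage, and the counts by position were close to those of all genes. The study lists E8.5 NotoP cells as positive for the Foxa2 reporter, but E9.5 NotoP and trunk notochord cells as high for it. It also lists wider ranges of somite numbers for the trunk libraries than for NotoP. The part of these differences in the values below was not tested. Between trunk notochord and NotoP, Snai1 was lower in the trunk at E8.5 (log2 ratio -1.82), beside 8.74% of all genes in either direction, and Krt8 was higher in the trunk at E9.5 (log2 ratio 1.94), beside 9.5%. The Krt8 value of the trunk was also higher at E8.5, with a log2 ratio of 1.35. Between stages, NotoP differed in Krt7 (higher at E9.5) and Krt18 (lower at E9.5, log2 ratio -1.80), beside 4.29% of all genes. Trunk notochord differed in Epcam alone (lower at E9.5, log2 ratio -3.01), beside 10.1%. The 2 MP libraries differed in 7 of 10 members, beside 9.25% of all genes, with Krt7, Krt8, Krt18, Epcam and Snai2 lower and Vim and Snai1 higher at E9.5.

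Other genes of epithelial junctions were examined as a list of 23. In NotoP over MP, 5 were at least 3-fold higher and 2 lower at E8.5, and 4 were higher and 0 lower at E9.5, beside the shares of all genes given above (8.83% and 2.63% higher). At E8.5, 18 of the listed genes had at least 1 FPKM in either library, and the 5 higher ones stand beside 18% of all such genes. In NotoPdiff over MPdiff, 10 were higher and 0 lower, beside 1.55% and 0.442% of all genes. The median log2 ratio of the listed genes with at least 1 FPKM in either library was 0.24 at E8.5, 1.18 at E9.5 and 1.52 in culture, beside 0.15, 0.05 and 0.03 for all such genes. Cldn6, a tight junction claudin of early embryonic epithelia, and Spint1 and Spint2, inhibitors of membrane serine proteases, passed at both stages. Cldn6 was at 47.0 FPKM in NotoP and 8.62 FPKM in MP at E8.5, at 23.9 and 2.13 FPKM at E9.5, and at 126 FPKM in NotoPdiff against 3.38 FPKM in MPdiff cells. Cd24a, a surface glycoprotein, and Tjp1, a scaffold protein of tight junctions, were abundant in all libraries, with log2 ratios of 0.27 and 0.21 at E8.5 and 1.18 and 0.74 at E9.5. Trunk notochord over MP gave 8 higher and 1 lower at E8.5, beside 10.4% and 4.58% of all genes, and 5 higher and 0 lower at E9.5, beside 5.6% and 4.49%. Against E9.5 MP, E8.5 NotoP had 5 higher and 0 lower, with a median of 1.14, and E8.5 trunk notochord had 12 higher and 0 lower, beside 3.96% and 5.66% of all genes higher.

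Keratin filaments are anchored at desmosomes, and of 12 desmosome and plakin genes 2 were higher in NotoP than in MP at E8.5 and 3 at E9.5, with 0 lower at either stage, beside 8.83% and 2.63% of all genes higher. At E8.5, 8 of the 12 had at least 1 FPKM in either library, where 18% of all such genes were higher. Perp, a desmosomal membrane protein, was at 10.9 and 14.9 FPKM in E8.5 and E9.5 NotoP, at 19.7 and 11.3 FPKM in trunk notochord, and at 0 in both MP libraries. Dsp, which links keratin to the desmosome, was at 157 and 107 FPKM in E8.5 and E9.5 NotoP, 79.3 and 32.2 FPKM in trunk notochord and 34.9 and 14.0 FPKM in MP. Its log2 ratio of trunk notochord over MP was 1.16 at E8.5 and 1.15 at E9.5, short of 3-fold. Dst, a plakin that binds filaments at hemidesmosomes, passed at neither stage (log2 ratios 0.74 and 0.94). Pkp2, a plakophilin, had a ratio of -0.33 at E8.5 and passed at E9.5, with 1.84. In NotoPdiff over MPdiff, 5 of the 12 were higher and 0 lower, beside 1.55% and 0.442% of all genes. The median over expressed list genes was 1.14 at E8.5, 1.28 at E9.5 and 1.37 in culture. For all expressed genes, it was 0.15, 0.05 and 0.03. Trunk notochord had 3 higher and 0 lower than MP at each stage, beside 10.4% (E8.5) and 5.6% (E9.5) of all genes higher, or 20.6% and 11.1% of those with at least 1 FPKM. Against E9.5 MP, 4 of the 12 were higher in E8.5 NotoP and 5 in E8.5 trunk notochord, beside 3.96% and 5.66% of all genes.

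Transcription and splicing factors that oppose the transition were mostly scarce. Of 10 (Ovol1, Ovol2, Grhl1, Grhl2, Grhl3, Esrp1, Esrp2, Elf3, Klf4, Klf5), 3 were higher in NotoP than in MP at E8.5 and 1 at E9.5, with 0 lower, beside 8.83% and 2.63% of all genes higher. Among genes with at least 1 FPKM in either library, 18% and 5.33% were higher. In trunk notochord over MP, 2 were higher and 1 lower (Grhl3, log2 ratio -1.93) at E8.5, beside 10.4% and 4.58% of all genes, and 0 were higher or lower at E9.5. Against E9.5 MP, 2 were higher and 0 lower in E8.5 trunk notochord, beside 5.66% and 3.13% of all genes. Grhl3 then no longer passed. In NotoPdiff over MPdiff 2 were higher and 0 lower, beside 1.55% and 0.442% of all genes. Klf5, a zinc finger factor of epithelia, passed at both stages, at 15.9 and 2.99 FPKM in NotoP against 1.50 and 0 FPKM in MP, but was at 0 in both trunk notochord libraries. Esrp1, the epithelial splicing regulator, was at 2.85 FPKM in NotoP and 8.5 FPKM in MP at E8.5, at 11.3 FPKM in NotoPdiff and 1.53 FPKM in MPdiff cells. Of 9 further factors that promote the transition, 0 were higher and 0 lower in NotoP at E8.5, and 0 were higher and 1 lower at E9.5, beside 4.02% and 1.11% of all genes lower. In trunk notochord over MP, 0 were higher and 0 lower at E8.5, and 2 were higher and 1 lower at E9.5, beside 5.6% and 4.49% of all genes, and in NotoPdiff over MPdiff 0 were higher and 2 lower, beside 0.442% of all genes lower. With 9 genes, a count of 0 or 1 is near these shares. Against E9.5 MP, 4 of the opposing factors were higher and 0 lower in E8.5 NotoP, beside 3.96% and 2.42% of all genes. Of these 9 promoting factors, 2 were higher and 0 lower in that comparison. In E8.5 trunk notochord against E9.5 MP, 0 of the 9 were higher and 0 lower, beside 5.66% and 3.13% of all genes. Tcf3 and Tcf4, broadly expressed E proteins that bind E-boxes, were the most abundant of them, between 17.1 and 100.3 FPKM in every library.

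Mesenchymal genes differed in both directions. Of 20, 5 were higher and 2 lower in NotoP than in MP at E8.5, and 1 was higher and 1 lower at E9.5. The shares of all genes were 8.83% higher and 4.02% lower at E8.5 and 2.63% and 1.11% at E9.5, and 18% of genes with at least 1 FPKM were higher at E8.5. Pdgfra, the receptor that marks paraxial mesoderm, was lower at both stages, at 10.9 and 11.6 FPKM in NotoP against 58.5 and 65.9 FPKM in MP. Fn1, which encodes fibronectin, and Cdh2, which encodes N-cadherin, were high in both cell types. Fn1 was at 468 and 546 FPKM in E8.5 and E9.5 NotoP and at 375 and 326 FPKM in MP, and Cdh2 was at 225 and 216 FPKM in NotoP and at 105 and 139 FPKM in MP. In trunk notochord, Fn1 was below MP, at 185 and 222 FPKM, and in NotoPdiff it was at 254 FPKM against 477 FPKM in MPdiff cells, all short of 3-fold. The median over expressed list genes was 1.04 at E8.5 and 0.31 at E9.5, beside 0.15 and 0.05 for all such genes. Against E9.5 MP, E8.5 NotoP had 2 higher and 1 lower, beside 3.96% and 2.42% of all genes. The median was then 0.35, beside 0.05 for all genes with at least 1 FPKM in either library. In trunk notochord over MP, 7 were higher and 1 lower at E8.5, beside 10.4% and 4.58% of all genes, and 3 were higher and 2 lower at E9.5, beside 5.6% and 4.49%. Against E9.5 MP, E8.5 trunk notochord had 5 higher and 2 lower, beside 5.66% and 3.13% of all genes. In NotoPdiff over MPdiff 1 was higher and 2 lower, beside 1.55% and 0.442%. Blood, endothelium and fibroblast markers were also read: the blood list summed to at most 2.27 FPKM and the endothelium list to at most 3.40 FPKM in any library, and the fibroblast list to between 8.61 FPKM in MPdiff cells and 48.6 FPKM in E8.5 trunk notochord, led there by Col1a2 at 29.5 FPKM. The neural tube list summed to 108 FPKM in E8.5 trunk notochord, with Irx3 the highest at 64.6 FPKM and Pax6 and Hes5 at 0. It summed to 73.3 FPKM in E9.5 trunk notochord. In NotoP it summed to 39.1 (E8.5) and 30.7 FPKM (E9.5), and in MP to 14.7 and 13.8 FPKM. The cultures had 5.05 FPKM (NMPdiff), 15.5 FPKM (NotoPdiff) and 11.3 FPKM (MPdiff).

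**Figure D4:**
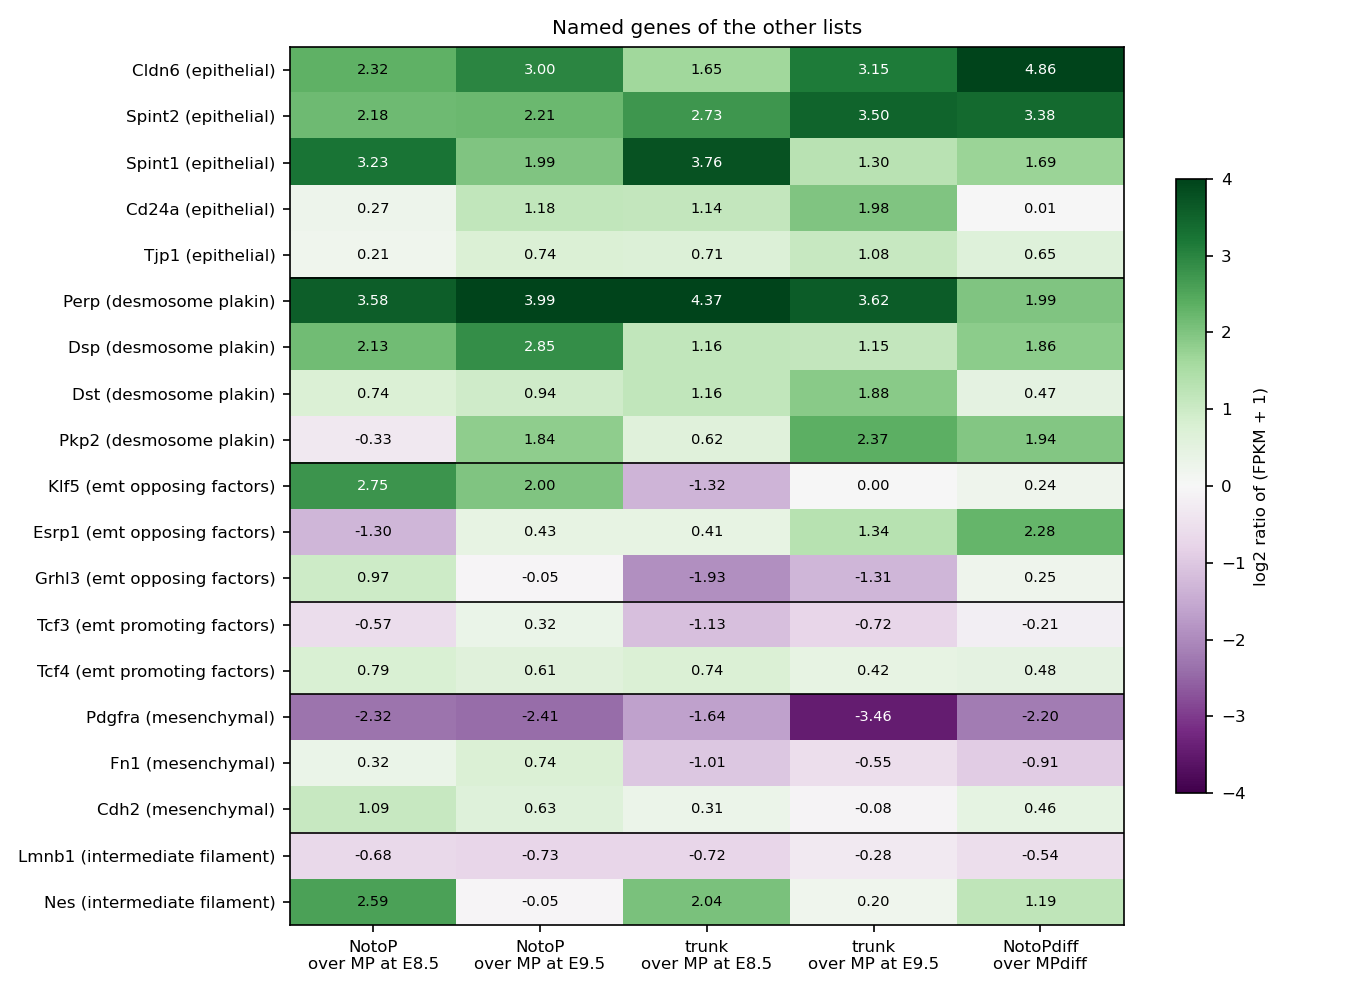
Log2 ratio of FPKM plus 1 of the named genes of the other lists (rows, grouped by list) in 5 comparisons of notochord with mesoderm (columns), green for higher and purple for lower in notochord, each of 1 library against 1. Cldn6, Spint1, Spint2, Cd24a, Tjp1, Perp, Dsp, Dst and Tcf4 are positive in all 5 columns, and Pdgfra and Lmnb1 are negative in all 5. The other named genes, among them Esrp1, Grhl3, Tcf3 and Fn1, differ in sign between columns.

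Over the 9 libraries, the log2 FPKM of Krt8 had a Pearson correlation of 0.98 with Krt18, 0.91 with Krt19, 0.47 with Epcam, 0.50 with Vim and -0.85 with Snai1. These are descriptions of 9 libraries that share their cell types and sort, with no test. Unlike the ratios, these correlations pool embryonic and cultured libraries, which were sequenced on different instruments. No gene of the 6101 with a mean of at least 10 FPKM had a higher correlation with Krt8 than Krt18. The most similar non-member genes were Spg11 (0.94), Chd2 (0.93), Itga3 (0.92), Elmo1 (0.92) and Pcdh7 (0.91). A correlation does not measure the size of a difference. Spg11 lay between 7.16 FPKM in E9.5 MP and 13.8 FPKM in E8.5 trunk notochord, and Chd2 between 11.1 FPKM in E9.5 MP and 32.6 FPKM in E8.5 NotoP. Itga3, which encodes the laminin receptor subunit integrin alpha 3, was at 53.0 and 35.3 FPKM in E8.5 and E9.5 trunk notochord and at 0 in both MP libraries. The genes most like Vim were Lepre1 (0.98), Strn3 (0.97), Rxrb (0.96), Erlec1 (0.96) and Srprb (0.96). The value of Lepre1, a collagen prolyl hydroxylase, was lowest in E8.5 MP (0.918 FPKM), as was that of Vim.

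Promoter sequences are shown for the epithelial members and Snai1 because E-boxes are the sequences through which Snai and Zeb factors act. RefSeq promoters (GRCm38.p6) were found for 7 members, and the 250 bases before the start were searched on both strands for CAGGTG, which reads CACCTG on the other strand. The letters occurred in 17.2% of all 32851 promoters. All 4 epithelial members with a promoter (Krt7, Krt8, Krt18, Epcam) held them, Epcam at a pair of positions, as did Snai1, while Vim and the 4 promoters of Zeb2 did not. The letters AGGTGTGA of a T site, which may overlap an E-box, occurred in 1.12% of all promoters and in none of the 5 printed here. The sequences read in the direction of the gene, with the E-box letters in capitals.
Krt8 promoter, chr15:102004343-102004592, minus strand: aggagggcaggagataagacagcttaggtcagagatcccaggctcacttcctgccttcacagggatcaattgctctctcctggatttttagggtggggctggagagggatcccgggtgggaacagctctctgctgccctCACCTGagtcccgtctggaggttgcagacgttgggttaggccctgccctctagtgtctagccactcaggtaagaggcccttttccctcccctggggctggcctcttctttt
Krt18 promoter, chr15:102027966-102028215, plus strand: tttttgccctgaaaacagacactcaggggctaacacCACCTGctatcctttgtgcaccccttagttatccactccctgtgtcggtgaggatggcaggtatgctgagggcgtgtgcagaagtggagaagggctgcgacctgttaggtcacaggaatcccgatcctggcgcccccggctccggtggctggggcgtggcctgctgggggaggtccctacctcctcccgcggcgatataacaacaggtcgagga
Krt7 promoter, chr15:101412153-101412402, plus strand: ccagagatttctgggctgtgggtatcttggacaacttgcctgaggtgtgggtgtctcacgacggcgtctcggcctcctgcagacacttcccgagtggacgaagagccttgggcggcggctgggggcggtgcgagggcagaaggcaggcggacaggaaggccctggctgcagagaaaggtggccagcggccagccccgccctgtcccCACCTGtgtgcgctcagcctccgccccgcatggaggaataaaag
Epcam promoter, chr17:87635729-87635978, plus strand: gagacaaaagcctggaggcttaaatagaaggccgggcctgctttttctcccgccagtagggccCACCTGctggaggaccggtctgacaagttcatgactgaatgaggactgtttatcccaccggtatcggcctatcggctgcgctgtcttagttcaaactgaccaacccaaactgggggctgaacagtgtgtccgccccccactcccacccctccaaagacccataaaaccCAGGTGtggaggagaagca
Snai1 promoter, chr2:167537945-167538194, plus strand: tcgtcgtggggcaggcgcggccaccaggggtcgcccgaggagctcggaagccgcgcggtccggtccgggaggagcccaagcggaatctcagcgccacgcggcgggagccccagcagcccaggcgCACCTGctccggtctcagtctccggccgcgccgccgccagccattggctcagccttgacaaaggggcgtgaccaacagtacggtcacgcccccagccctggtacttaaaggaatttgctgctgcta
The first base of the E-box lay 111 bases before the start of Krt8, 214 before that of Krt18 and 44 before that of Krt7. In Epcam, it lay 187 and 19 bases before the start, and in Snai1 126 bases. A match of letters is not a bound site, and binding of Snai or Zeb factors was not measured here.

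Binding was measured for T and Foxa2 by ChIP-seq of NotoPdiff-enriched bulk cultures, with 1 library each. A T peak summit lay within 25 kb of the start of 6 members (Krt8, Krt18, Krt19, Snai1, Snai2, Zeb1), beside 15.8% of 22772 genes with a position. A Foxa2 summit did so for 6 members (Krt7, Krt8, Krt18, Krt19, Vim, Zeb2), beside 33.7% of genes. Krt8, Krt18 and Krt19 had both, although all Krt19 windows held the TGTGTG repeat described below. Krt8 and Krt18 share their peaks, since their starts lie 23698 bases apart and are transcribed away from each other, so these members are not independent of each other.

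The T peak of Krt8 and Krt18 lay between them at chr15:102016554-102017048 in intergenic sequence, with its summit 12295 bases upstream of Krt8 and 11403 bases upstream of Krt18. Its fold enrichment of 14.8 ranked as number 653 of 6875 T peaks. A Foxa2 peak at chr15:102007469-102007863, in an intron of Gm36026, had its summit 3138 bases upstream of Krt8 and a fold enrichment of 12.0, number 3144 of 22684. The strongest T peak near any member was that of Snai2 at chr16:14721927-14722469, 16367 bases downstream of its start and intergenic, with a fold enrichment of 19.5 and rank 208. Snai2 itself was at 1.26 FPKM in NotoPdiff cells. Snai1 had a weaker T peak 6519 bases downstream of its start (fold enrichment 5.48), and the T peak 465 bases downstream of the Zeb1 start had a fold enrichment of 3.83, rank 6713. Epcam had no T peak within 50 kb, and its nearest Foxa2 summit lay 44817 bases upstream.

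**Figure D5:**
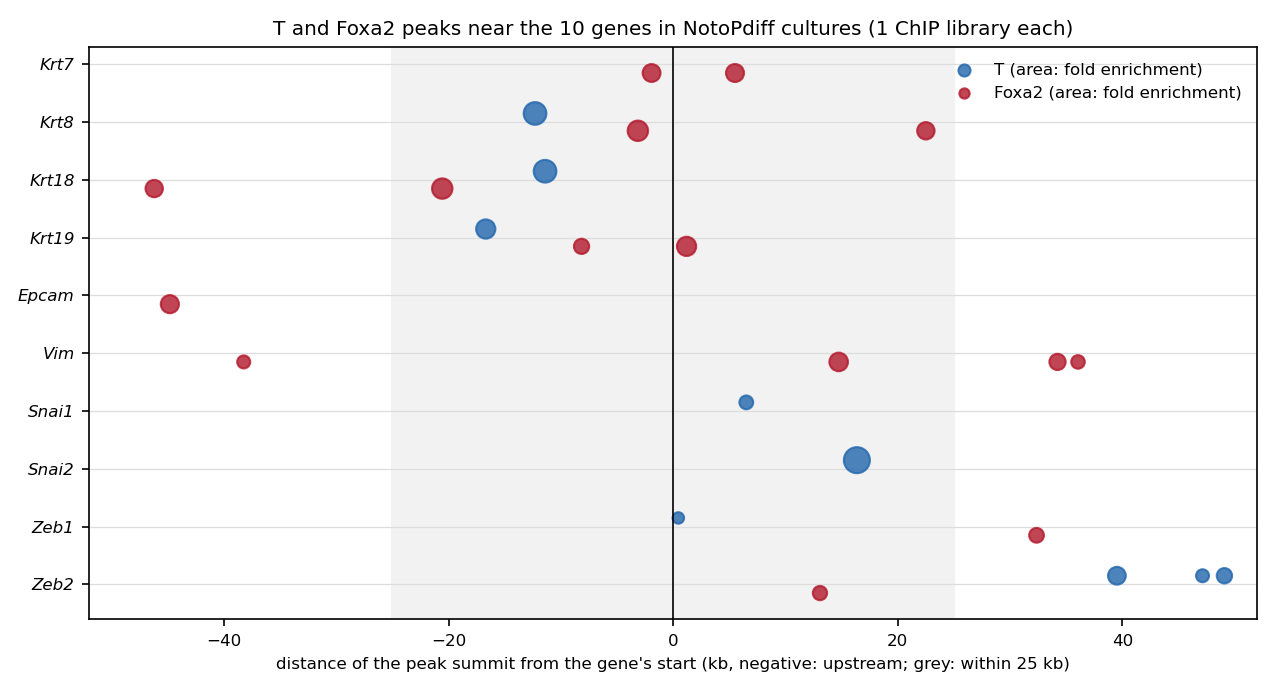
Distance of T (blue) and Foxa2 (red) peak summits from the start of each member (horizontal axis, kb, negative upstream, out to 50 kb on either side), with the area of a point proportional to fold enrichment and the 25 kb window in grey. Krt8, Krt18 and Krt19 have points of both factors within the window, and Epcam has 0.

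The bases around 3 summits, 75 on either side, are printed because they are the strongest peaks of the keratin pair and of Snai2. In the T windows, the capitals mark the E-box letters CAGGTG, and in the Foxa2 window they mark TGTTTA, the core of a forkhead site, which reads TAAACA on the other strand.
T summit between Krt8 and Krt18, chr15:102016702-102016852, plus strand: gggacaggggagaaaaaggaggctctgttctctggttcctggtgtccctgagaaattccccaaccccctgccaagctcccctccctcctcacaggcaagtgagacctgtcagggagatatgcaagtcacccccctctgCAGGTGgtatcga
Foxa2 summit upstream of Krt8, chr15:102007545-102007695, plus strand: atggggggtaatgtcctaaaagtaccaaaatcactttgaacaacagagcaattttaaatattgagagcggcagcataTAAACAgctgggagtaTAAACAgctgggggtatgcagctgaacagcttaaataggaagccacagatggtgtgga
T summit downstream of Snai2, chr16:14722144-14722294, plus strand: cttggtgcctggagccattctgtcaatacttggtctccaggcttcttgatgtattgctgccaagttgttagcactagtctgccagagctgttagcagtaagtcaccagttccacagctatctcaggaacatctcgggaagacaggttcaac
The Foxa2 window near Krt8 held the forkhead core at a pair of positions, 2 and 18 bases after the summit. Of all Foxa2 windows of this length, 35.0% held these letters, as did 22.4% of T windows, and these 6 letters were chosen after the window had been read. Among the 16 distinct Foxa2 windows of the members, 4 held them. The longer TGTTTAC occurred in 12.2% of Foxa2 windows, in 10.6% of T windows and in 0 of those 16. The letters AGGTGTGA of a T site occurred in 3.59% of T windows and in 0 of the 8 distinct T windows of the members. The T window of the keratin pair held CAGGTG 63 bases after its summit, as 15.6% of all T windows held it, and that of Snai2 held none.

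Many Foxa2 windows lay in simple repeats. TGTGTG, or CACACA on the other strand, occurred in 53.8% of all Foxa2 windows, against 20.1% of T windows, and in 10 of the 16 distinct Foxa2 windows of the members. Among these were both windows of Krt7, both of Krt19 and that of Vim within 25 kb, but not the Foxa2 window 3138 bases upstream of Krt8. Without peaks of this kind, 3 members kept a Foxa2 peak within 25 kb (Krt8, Krt18, Zeb2), beside 17.9% of genes, and 5 kept a T peak, beside 13.3%, the one lost being that of Krt19. The part of the repeats in these peak calls was not tested.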

How the data were processed

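Of 21 samples, the 9 RNA-seq libraries and the T and Foxa2 ChIP-seq libraries were used, and the other 10 were not used here. For RNA-seq, the authors trimmed the first 5 bases, aligned reads by strand to mm10 (TopHat2 2.1.1, Bowtie 1.2.2, RefSeq models), removed duplicates by molecular identifiers and deposited FPKM values from Cufflinks 2.2.1 with bias and multi-read correction. Each read was placed once, so reads shared with near-identical copies of Krt8 or Krt18 could lie at either. Embryonic and cultured libraries were sequenced on different instruments, so ratios were formed only within embryo or within culture. The deposited FPKM values keep no counts (the smallest above 0 is 2.57e-06), so depth is unknown from the table and no counting interval is given. The study lists mapped reads without duplicates for the embryonic libraries, with the fewest for E8.5 MP, and these were not used here. Each of the 9 columns belongs to a sample (0 unmatched). Peaks were called by the authors in each ChIP-seq library with MACS3 3.0.0b1 at a q-value cutoff of 0.1, and the control is not given in the sources used here. The deposited peak lists give a fold enrichment and −log10 of q at each summit.

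Ratios were computed as log2 after adding 1 FPKM (Python 3.11.15, numpy 2.4.6, pandas 2.3.3), and 3-fold was the threshold. The code of the 3-fold rule was run on simulated data, which checks the code and not the choice of threshold. With 1 library per condition, no test was made. Distances run from the GENCODE M21 start (for 22772 of 23983 symbols) to the summit, and coordinates count from 1. RefSeq starts can differ, for Krt7 by 1360 bases. The members and all gene lists were chosen with earlier results of these data known. Named are all members, in each other list up to 5 genes past 3-fold in NotoP over MP at both stages and the 2 most abundant others, Krt genes reaching 5 FPKM, the top marker gene, and the 5 genes most correlated with Krt8 and with Vim; other named genes were chosen after their values were seen. The other pseudocounts, scalings, windows and libraries tried are given at the end.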

Additional observations from a re-analysis of the deposited data

Results flagged for a closer look

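The ratios of several members had opposite signs at E8.5 and E9.5 in the same contrast, each on 1 library a side, so that the difference between the stages was not tested. In NotoP over MP, the log2 ratio of Krt7 went from -2.77 at E8.5 to 4.30 at E9.5, a difference of 7.07. The ratio of Epcam went from -0.29 to 2.66, a difference of 2.95, and that of Snai2 from -3.13 to 0.42, a difference of 3.55. The ratio of Vim went from 2.51 to -0.19, a difference of -2.70, and that of Snai1 from 0.37 to -2.08, a difference of -2.45. Only Krt7 passed 3-fold at both stages, the other 4 at 1 stage each, and the E8.5 ratio of Epcam was 0.16 under upper-quartile scaling. In trunk notochord over MP, Krt7 alone had opposite signs with at least 3-fold at a stage, from -1.54, short of 3-fold, to 4.00, a difference of 5.54. All of these comparisons use the E8.5 MP library, which held gut endoderm markers at a sum of 89.0 FPKM and 13945 genes at 0, and the part of that library in the differences was not tested. In the MP libraries themselves, the log2 ratio of E9.5 over E8.5 was -4.25 for Krt7, -4.03 for Epcam, 2.00 for Vim and 2.26 for Snai1, whereas the same ratio in NotoP was 2.82, -1.08, -0.70 and -0.19.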

How the results depend on the processing

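Of 134 counts and shares recomputed under alternatives, 109 stayed within 1.5 times of the count or within 5 percentage points of the share. With a pseudocount of 5 FPKM, the members lower in NotoP at E8.5 went from 2 to 1. Those lower in trunk notochord at E8.5 and those changed between trunk notochord and NotoP at E8.5 went from 1 to 0. Between NMPdiff and NotoPdiff, those changed went from 2 to 1. With 0.1 FPKM, trunk notochord had 3 lower members than MP at E8.5, 2 at E9.5, and those changed between trunk notochord and NotoP were 2 (E8.5) and 3 (E9.5), and between trunk stages 2. Upper-quartile scaling shifts log2 ratios, before the pseudocount is added, by 0.48 for NotoP and for trunk notochord over MP at E8.5, by -0.28 for trunk notochord over MP and -0.23 for trunk notochord over NotoP at E9.5, and by 0.64, -0.12 and 0.11 for E9.5 over E8.5 in MP, trunk notochord and NotoP. It gave 2 members changed between trunk notochord and NotoP at E9.5 and 2 between trunk stages. A 2-fold rule gave 3 lower members in trunk notochord at E8.5 and 2 in NotoPdiff. It gave 6 and 4 members changed between trunk notochord and NotoP at E8.5 and E9.5. Between NMPdiff and NotoPdiff it gave 5, between NotoP stages 4 and between trunk stages 6. With E9.5 MP in place of E8.5 MP, 1 member was lower in E8.5 NotoP, and the ratios of Krt7 (NotoP, 1.48) and Snai2 (trunk notochord, 0.77) turned from at least 3-fold lower to above 0. Under the same change, the ratios of Krt7 in trunk notochord (-1.54 to 2.71), of Snai1 (0.37 to -1.89) and of Epcam (-0.29 to 3.74) in NotoP, which had been short of 3-fold, also changed sign and passed it. With Krt8 and Krt18 alone, the keratin share was 51.3% in E9.5 NotoP and 47.2% in E8.5 MP. Within 5 kb of the start, 1 member had a T peak and 3 a Foxa2 peak, and 3 had a T peak in the gene or within 5 kb. Without peaks in TGTGTG repeats, an alternative chosen after seeing the data, 3 had a Foxa2 peak. The cause of these differences was not tested beyond the construction of each alternative.

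Replicate numbers pair no libraries here, since each condition has 1. Notochord and MP were compared within each stage, and a fit with stage as a block over the 6 embryonic libraries was not made. Without replicates or counts, no value has an error. The E8.5 MP library is a further limit on every E8.5 comparison with MP. The gene lists with E9.5 MP in its place were added after seeing the data.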

Other observations

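Some genes outside the naming rule, chosen after their values were seen, are given as values. Cdh1, which encodes E-cadherin and is the classical target of Snai1, was at 29.5 and 3.36 FPKM in E8.5 and E9.5 NotoP, 37.4 and 11.3 FPKM in trunk notochord and 5.88 and 0.933 FPKM in MP. In culture, it was at 114 FPKM in NMPdiff, 88.5 FPKM in NotoPdiff and 11.1 FPKM in MPdiff cells, so that its order over the cultures was that of Epcam and not that of Krt8. For NotoP over MP, its log2 ratio was 2.15 (E8.5) and 1.17 (E9.5), the latter short of 3-fold.

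Twist1 and Prrx1, mesenchymal transcription factors, were highest among embryonic libraries in E9.5 trunk notochord, at 21.9 and 16.8 FPKM, against 2.81 and 0.280 FPKM in E9.5 MP. These were the 2 of the 9 further promoting factors that were higher in that comparison. Twist2 was the 1 that was lower, at 0 in E9.5 trunk notochord against 3.83 FPKM in E9.5 MP. In culture, Twist1 and Prrx2 were the 2 lower ones. Twist1 was at 23.3 FPKM in MPdiff against 5.08 FPKM in NotoPdiff cells, and Prrx2 at 27.5 against 2.03 FPKM. Tagln, which encodes an actin-binding protein of smooth muscle, was at 41.4 FPKM in NotoPdiff against 1.56 FPKM in MPdiff cells. Among 14 other intermediate filament genes, 2 were higher and 1 lower in NotoP than in MP at E8.5, and 0 higher and 1 lower at E9.5, beside 8.83% and 4.02% of all genes at E8.5 and 2.63% and 1.11% at E9.5. Against E9.5 MP, E8.5 NotoP had 0 higher and 1 lower, beside 3.96% and 2.42% of all genes. Lmnb1, which encodes a nuclear lamin, was the most abundant, with log2 ratios of -0.68 at E8.5 and -0.73 at E9.5. Nes, which encodes nestin, was at 15.2 and 17.5 FPKM in E8.5 and E9.5 NotoP and at 1.69 and 18.1 FPKM in MP.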
